A study of Homo sapiens with 18 samples.

Results

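Transcripts of glucose breakdown and of the response to low oxygen were followed in DLD1, an established human colorectal cancer cell line, through 39 genes. They comprise 20 genes of glycolysis and lactate handling, 4 regulators of glycolytic flux, and 15 genes of the hypoxia response. Rows of the deposited poly(A) count table were matched by gene symbol, which found all 39 among 47021 rows, and all 39 were among the 14732 genes with enough counts to be tested. The libraries fall into 3 groups of 3. The groups sgZ1 and sgZ3 are labelled as CRISPR knockouts of the zinc-finger gene ZNF692 made with guide 1 and guide 3, and sgC is labelled wild type and carries a control guide. Cells of all 3 groups received lentivirus and were then selected with 10 µg/ml puromycin to make stable lines, and all grew in DMEM with 5% fetal bovine serum and antibiotics. No low-oxygen exposure is named in the labels. They also do not say whether a line is 1 clone or a pool, nor whether replicates come from separate cultures. A p-value here therefore weighs a difference against the spread between these libraries alone, which may be technical.

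Glycolysis splits glucose into pyruvate in a chain of enzymes, and lactate dehydrogenase turns pyruvate into lactate, which leaves the cell through monocarboxylate transporters. When oxygen is low, prolyl hydroxylases of the EGLN family no longer mark the transcription factor HIF-1α for destruction, and it raises transcription of many glycolytic genes together with genes of pH control, mitophagy, vessel growth and collagen modification. Colorectal cancer cells commonly ferment glucose to lactate also in air, and MYC is another known activator of glycolytic enzyme genes.

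HIF binds DNA at a short core, ACGTG or GCGTG, and MYC binds the E-box CACGTG, which contains ACGTG. These letters were searched on both strands of RefSeq promoter windows of GRCh38.p14, each running from 250 bases before to 50 bases after a start site. Windows were found for 34 of the 39 genes, 62 windows in all. ACGTG was in 38.7% of these windows, against 21.4% of all 35116 windows. GCGTG was in 40.3%, against 36.5% of all windows, and CACGTG in 12.9%, against 7.26%. A match is a description of the letters and does not show a bound site. The 5 windows printed here belong to genes whose mRNA differed between the groups in the ways described further on, and were picked after those differences were seen. ENO1 (chr1:8878637-8878936, minus strand) and PGAM1 (chr10:97427568-97427867, plus strand) were higher with both guides. P4HA1 (chr10:73096817-73097116, minus strand) was called lower with sgZ1 and with the guides averaged, but not with sgZ3. BNIP3 (chr10:131981874-131982173, minus strand) and ALDOC (chr17:28576846-28577145, minus strand) moved in opposite directions with the 2 guides. Capitals mark these motifs on either strand, and a core on the opposite strand appears as its reverse complement. The PGAM1 window holds no core, and like the others it follows RefSeq's start site, which can lie inside the bounds another annotation gives the gene.
ENO1: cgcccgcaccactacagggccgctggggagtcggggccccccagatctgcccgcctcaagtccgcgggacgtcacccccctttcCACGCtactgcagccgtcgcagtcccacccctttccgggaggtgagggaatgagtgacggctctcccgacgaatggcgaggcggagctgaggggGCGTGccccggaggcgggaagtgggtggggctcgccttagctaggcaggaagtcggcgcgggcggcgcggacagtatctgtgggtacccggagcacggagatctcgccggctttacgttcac
PGAM1: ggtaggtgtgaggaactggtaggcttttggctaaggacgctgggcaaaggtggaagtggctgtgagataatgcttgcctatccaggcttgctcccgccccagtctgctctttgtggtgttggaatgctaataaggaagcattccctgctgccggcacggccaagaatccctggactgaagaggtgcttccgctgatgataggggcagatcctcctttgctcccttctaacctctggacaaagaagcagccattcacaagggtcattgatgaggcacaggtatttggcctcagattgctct
P4HA1: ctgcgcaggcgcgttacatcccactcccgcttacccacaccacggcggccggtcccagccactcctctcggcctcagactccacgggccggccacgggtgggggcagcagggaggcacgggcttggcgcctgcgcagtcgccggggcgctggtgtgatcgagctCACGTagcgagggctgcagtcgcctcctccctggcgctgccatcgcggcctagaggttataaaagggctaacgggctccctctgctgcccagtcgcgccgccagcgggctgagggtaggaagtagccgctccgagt
BNIP3: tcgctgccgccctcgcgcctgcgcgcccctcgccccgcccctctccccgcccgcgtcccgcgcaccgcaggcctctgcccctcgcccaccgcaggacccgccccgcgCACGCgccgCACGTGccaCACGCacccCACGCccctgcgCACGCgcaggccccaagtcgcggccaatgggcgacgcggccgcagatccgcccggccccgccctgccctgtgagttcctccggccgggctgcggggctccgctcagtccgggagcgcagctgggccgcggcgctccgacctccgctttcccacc
ALDOC: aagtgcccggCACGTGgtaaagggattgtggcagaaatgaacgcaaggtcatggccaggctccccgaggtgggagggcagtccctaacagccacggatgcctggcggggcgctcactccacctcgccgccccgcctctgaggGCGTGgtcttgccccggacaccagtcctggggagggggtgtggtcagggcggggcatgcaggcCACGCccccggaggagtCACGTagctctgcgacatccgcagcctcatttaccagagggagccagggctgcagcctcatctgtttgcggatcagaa

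Levels are given as CPM, counts divided by a library size scaled by TMM, a method that corrects for differences in composition. ZNF692 itself (ENSG00000171163.16) averaged 10.3 ± 1.01 CPM in sgZ1, 7.43 ± 0.988 CPM in sgZ3 and 6.51 ± 0.446 CPM in sgC (SD, n = 3 each). It was higher in sgZ1 than in sgC, with a log2 fold change of 0.66 (SE 0.14, adjusted p = 0.0048), and the value for sgZ3 was 0.19 (SE 0.14, adjusted p = 0.32). Small CRISPR edits can leave transcript abundance as it was, so the labels cannot be checked by it, and every direction given is one between libraries so labelled. Total counts ran from 16044224 to 24535642 per library. Of 12 colon epithelium markers 11 passed the filter on low counts, and their summed level was 8938 to 9821 CPM in sgZ1, 11062 to 12140 CPM in sgZ3 and 9220.5 to 10321 CPM in sgC. KRT8, KRT18, KRT19 and EPCAM weigh most in this sum. With sgZ3 only EPCAM, KRT8 and KRT18 passed an adjusted p of 0.05 (edgeR), all higher. CDH1, VIL1, CDX2, LGALS4 and CEACAM5 had sgZ3 values below 0 that did not pass. With sgZ1 EPCAM, KRT20, CDX2, LGALS4 and CLDN7 passed as lower and none as higher. Summed fibroblast markers reached 17.5 CPM in sgZ1 replicate 2 and 21.0 CPM in sgZ3 replicate 3 and stayed between 1.08 and 3.59 CPM in the other libraries. In those 2 libraries COL1A1 alone had 12.2 and 15.2 CPM, while DCN, LUM, FAP and PDGFRA were at most 0.203 CPM in any library. The same 2 libraries stood apart in VIM (22.9 and 21.2 CPM, at most 1.22 CPM elsewhere) and SPARC (64.3 and 66.8 CPM, 3.73 to 5.91 CPM elsewhere), so counts are also given without both. Summed endothelial markers lay between 3.16 and 4.39 CPM and summed leukocyte markers between 4.12 and 5.84 CPM, with CD68 at 0 counts in every library. Nearly all of the leukocyte sum was CD14, and PTPRC was at most 0.195 CPM. The part of these levels in the results was not tested.

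Glycolytic genes were on balance higher, and hypoxia genes on balance lower, in the libraries carrying a ZNF692 guide. With the 2 guides averaged and set against sgC, 9 of the 20 glycolytic genes were higher and 0 were lower by edgeR's quasi-likelihood test at a false discovery rate of 0.05, with a median log2 fold change of 0.18. Of these 9 only PGAM1, ENO1 and SLC16A3 were called with each guide, and for each a single-guide call was lost in some fits. Among the 15 hypoxia genes 2 were higher and 6 lower, with a median of -0.26. Of the 6 lower only BNIP3L and VEGFA were called with each guide. Of the 4 flux regulators 1 was higher, PFKFB3, and 2 lower. ALDOA passed the filter on low counts only through sgZ1, and without it 8 of 19 glycolytic genes were higher over both guides. Over all 14732 genes tested 18.6% were called higher and 14.6% lower (33.2% in either direction), with a median of 0.0078. Of all calls over both guides 56.0% were higher, against 45.9% with upper-quartile factors and 36.6% with library totals alone. In bulk RNA, fewer cells with a transcript and less of it per cell cannot be told apart. The count of higher glycolytic genes was 5 without sgZ3 replicate 1, 3 without sgC replicate 1, 4 without sgC replicate 3 and 5 with library totals in place of TMM. In those fits, in that order, 24.9%, 14.5%, 15.9% and 35.0% of all genes were called in either direction. The 6 lower hypoxia genes were 4 to 6 without any 1 library, and the 2 higher ones were 1 without sgC replicate 3. Without both libraries high in VIM 9 glycolytic genes were higher and 1 lower, and 2 hypoxia genes were higher and 8 lower, where 49.6% of all genes were called in either direction.

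Each guide set against the same sgC libraries gave its own counts. With sgZ1, 6 glycolytic genes were higher and 0 lower, and 2 hypoxia genes were higher and 4 lower, where 15.5% of all genes were called higher and 10.3% lower (25.8% in either direction). Without ALDOA the count with sgZ1 was 5 of 19. With sgZ3, 9 glycolytic genes were higher and 2 lower, and 3 hypoxia genes were higher and 7 lower, where the shares of all genes were 19.2% and 17.1% (36.3% in either direction). Without both libraries high in VIM, sgZ1 had 9 glycolytic genes higher and 0 lower and 3 hypoxia genes higher and 6 lower, and sgZ3 had 8 and 2 of the first and 3 and 9 of the second. Of all genes 39.5% were then called with sgZ1 and 55.3% with sgZ3. The 9 glycolytic genes higher with sgZ3 were 5 without sgZ3 replicate 1, 4 without sgC replicate 1 or 3, and 4 with library totals alone. In those fits, in that order, 21.2%, 20.4%, 20.5% and 39.9% of all genes were called with sgZ3. The 4 hypoxia genes lower with sgZ1 were 2 without sgC replicate 1 or 2, and the 2 higher ones were 1 without sgZ1 replicate 1 or 3, sgZ3 replicate 1 or 2, or any 1 sgC library. In these fits 14.0% to 23.5% of all genes were called with sgZ1. Of the 20 genes called over both guides, 10 kept their call when each of the 9 libraries was left out in turn, namely PGAM1, ENO1, SLC16A3, PDK1, PFKFB2, CA12, BNIP3L, NDRG1, VEGFA and P4HA1. How many of the 4885 calls over all genes did so was not counted.

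**Figure D1:**
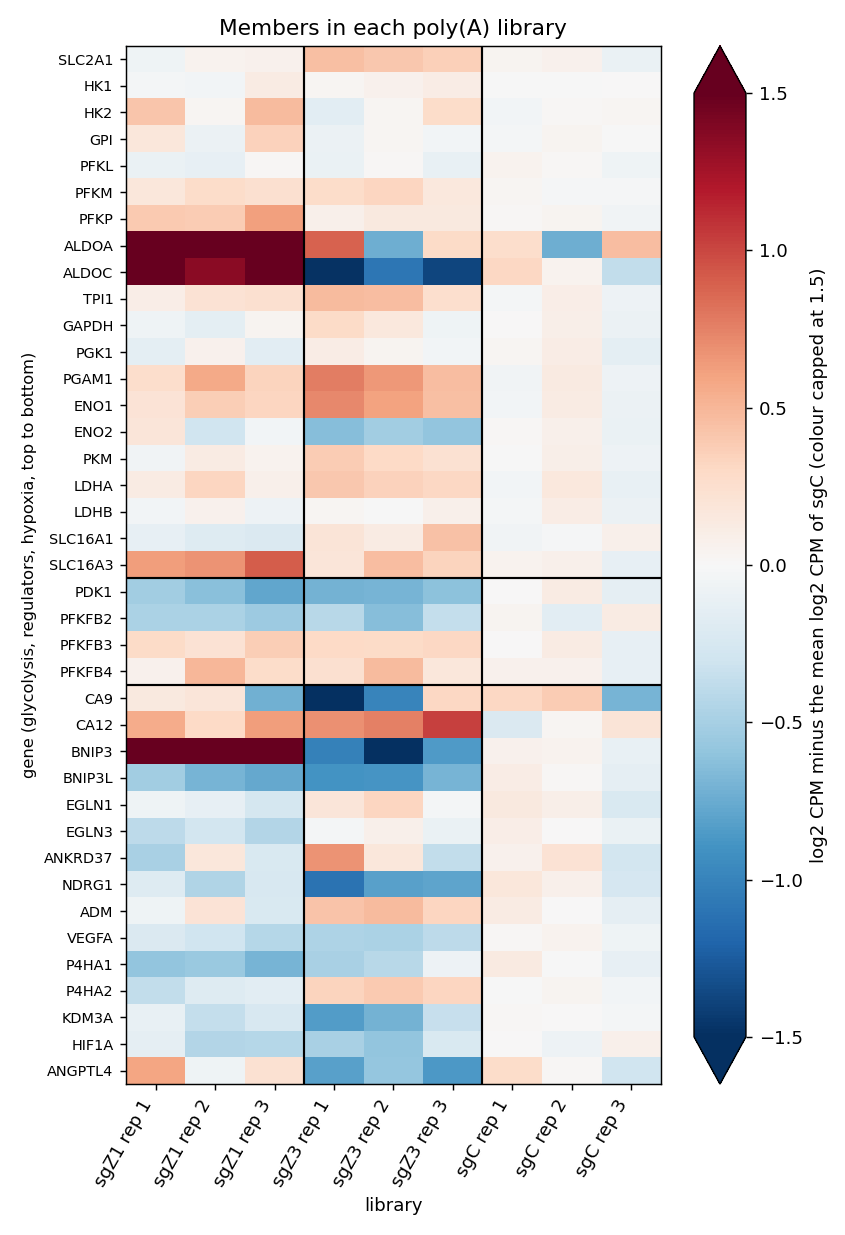
Each row is 1 of the 39 genes, from glycolysis at the top through the flux regulators to hypoxia at the bottom, and each column is 1 poly(A) library. Colour gives log2 CPM minus the mean log2 CPM of the 3 sgC libraries, capped at 1.5 in either direction. PGAM1 and ENO1 are red in all 6 libraries with a ZNF692 guide, PDK1 and BNIP3L are blue in all 6, and ALDOC and BNIP3 are red in sgZ1 and blue in sgZ3.

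In the heat map of all 39 genes the 3 sgC columns also differ among themselves. In sgC replicate 3 only 4 of the 20 glycolytic genes and 2 of the 15 hypoxia genes lay above the sgC mean, in sgC replicate 2 the counts were 16 and 13, and in sgC replicate 1 they were 10 and 13. The description of sgC replicate 3 names a ribosomal RNA table, while its title and molecule place it among the poly(A) libraries. In the libraries with a ZNF692 guide 12 to 16 of the 20 glycolytic genes and 3 to 6 of the 15 hypoxia genes lay above that mean. The share of all genes tested that lay above it was not computed for any library, so these counts are a description only.

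Of glucose entry and the first steps of the chain, the transporter SLC2A1 and the phosphofructokinase PFKP differed between the guides. SLC2A1, which encodes the glucose transporter GLUT1, stood at 929.7, 1014 and 1016 CPM in sgZ1, 1332, 1288 and 1244 CPM in sgZ3, and 1002, 1018 and 908 CPM in sgC. All 3 sgZ3 libraries were above every other library, while sgZ1 and sgC overlapped. The log2 fold change was 0.40 (SE 0.080, adjusted p = 0.0033) with sgZ3 and 0.02 (SE 0.080, adjusted p = 0.91) with sgZ1. The value over both guides was 0.21 (SE 0.070, adjusted p = 0.039), which lost its call without sgZ1 replicate 2 (adjusted p = 0.068) or 3 (0.057), sgZ3 replicate 1 (0.080) or 2 (0.077) or sgC replicate 1 (0.11), 2 (0.067) or 3 (0.20) and with upper-quartile factors (0.083), library totals alone (0.18) or no low-count filter (0.092). The hexokinases HK1 and HK2, which phosphorylate glucose, the isomerase GPI and the liver-type phosphofructokinase PFKL were not called in any comparison, with log2 fold changes over both guides between -0.07 and 0.19. Without sgZ1 replicate 2, however, HK2 and GPI were called higher with sgZ1, at 0.43 (adjusted p = 0.021) and 0.25 (0.046), and lower in sgZ3 than in sgZ1, at -0.42 (0.018) and -0.32 (0.010). HK2 was called in both of these comparisons also without sgZ3 replicate 3 (adjusted p = 0.046 and 0.031), and PFKL was lower with sgZ3 under library totals alone (0.046).

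Phosphofructokinase commits the sugar to glycolysis, and its muscle and platelet forms were called. PFKP, the platelet form, had 220.1, 218 and 259 CPM in sgZ1, 177, 186 and 186 CPM in sgZ3, and 169.6, 174 and 162 CPM in sgC. Its sgZ1 libraries were above all others, and its sgZ3 libraries lay between them and sgC without overlap. The log2 fold change of PFKP was 0.47 (SE 0.089, adjusted p = 0.0026) with sgZ1 and 0.29 (SE 0.078, adjusted p = 0.015) over both guides, the second of which lost its call without sgC replicate 1 (adjusted p = 0.068) or 3 (0.088) and with library totals alone (0.070). With sgZ3 the PFKP value was 0.12 (SE 0.090, adjusted p = 0.31). PFKM, the muscle form, had 178, 192 and 186 CPM in sgZ1, 191, 197 and 176 CPM in sgZ3, and 161, 156 and 156 CPM in sgC. Both ZNF692 groups were above sgC without overlap, with a log2 fold change over both guides of 0.24 (SE 0.071, adjusted p = 0.023). PFKM lost its call without sgZ3 replicate 1 (adjusted p = 0.052) or 2 (0.058) or sgC replicate 1 (0.081), 2 (0.087) or 3 (0.10) and with upper-quartile factors (0.051), library totals alone (0.12) or no low-count filter (0.060). For sgZ1 the PFKM value was 0.23 (SE 0.081, adjusted p = 0.055). For sgZ3 it was 0.25 (SE 0.081, adjusted p = 0.031), a call lost without the same libraries and under the same settings.

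The aldolases, which split fructose bisphosphate, differed between the guides. Gene bounds here and further on are those of GENCODE 29 on GRCh38. ALDOC (ENSG00000109107.14; chromosome 17, 28573115 to 28577264, minus strand), the brain-type aldolase, stood at 32.3, 27.7 and 34.2 CPM in sgZ1, 3.79, 5.04 and 4.11 CPM in sgZ3, and 13.4, 11.2 and 8.36 CPM in sgC. The sgZ1 libraries were above every sgC library and the sgZ3 libraries below every sgC library. The log2 fold change was 1.52 (SE 0.17, adjusted p = 4.5e-05) with sgZ1 and -1.34 (SE 0.19, adjusted p = 0.00051) with sgZ3, so that their mean, 0.09 (SE 0.15, adjusted p = 0.68), describes neither guide. The ALDOC window printed above holds 3 ACGTG and 2 GCGTG matches, an E-box counting as an ACGTG match on each strand. ALDOA, the main aldolase of most cells, was nearly without counts, and its whole-number counts were 50, 54 and 45 in sgZ1, 3, 0 and 2 in sgZ3, and 2, 0 and 3 in sgC. Since only sgZ1 carried ALDOA past the filter, no test of it is given. Of its exon bases 42.31% are shared on the same strand with another annotated gene, whose row held 62, 64 and 62 counts in sgZ1, 35, 56 and 44 in sgZ3, and 37, 48 and 66 in sgC. The ALDOA values are therefore uncertain.

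Triose sugars are handled by TPI1, GAPDH and PGK1. TPI1, triose phosphate isomerase, had 885, 961 and 979.9 CPM in sgZ1, 1152, 1144 and 986 CPM in sgZ3, and 811, 886 and 787 CPM in sgC. All sgZ3 libraries were above sgC, and sgZ1 overlapped sgC by 1 library. The TPI1 log2 fold change was 0.40 (SE 0.090, adjusted p = 0.0058) with sgZ3 and 0.29 (SE 0.079, adjusted p = 0.015) over both guides, a call lost without sgC replicate 1 (adjusted p = 0.081) or 3 (0.088). With sgZ1 the TPI1 value was 0.19 (SE 0.090, adjusted p = 0.15). GAPDH, which is often used as a reference gene, averaged 2419 ± 149.8 CPM in sgZ1, 2748 ± 329 CPM in sgZ3 and 2512 ± 153 CPM in sgC (SD, n = 3 each). PGK1, phosphoglycerate kinase, averaged 792 ± 69.7 CPM in sgZ1, 858 ± 44.9 CPM in sgZ3 and 837 ± 73.3 CPM in sgC (SD, n = 3 each). Neither was called in any comparison, with log2 fold changes over both guides of 0.04 (SE 0.085) and -0.02 (SE 0.082). GAPDH was called higher in sgZ3 than in sgZ1 when sgZ3 replicate 3 was left out (0.27, adjusted p = 0.028).

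Of the enzymes of the glycolytic chain itself, PGAM1 and ENO1, which act before pyruvate kinase, were called higher with each guide. PGAM1 (ENSG00000171314.9; chromosome 10, 97426160 to 97433441, plus strand), phosphoglycerate mutase, had 959.9, 1190.1 and 1012 CPM in sgZ1, 1364, 1259 and 1102 CPM in sgZ3, and 772, 876 and 759 CPM in sgC. Every library with a ZNF692 guide was above every sgC library. The log2 fold change was 0.51 (SE 0.096, adjusted p = 0.0024) over both guides and 0.63 (SE 0.11, adjusted p = 0.0015) with sgZ3. For sgZ1 it was 0.39 (SE 0.11, adjusted p = 0.019), a call lost without sgZ1 replicate 2 (adjusted p = 0.057) or sgC replicate 1 (0.092) or 3 (0.083). ENO1 (ENSG00000074800.16; chromosome 1, 8861000 to 8879250, minus strand), the enolase of most tissues, had 3003, 3359.7 and 3253 CPM in sgZ1, 4268, 3959 and 3556 CPM in sgZ3, and 2534, 2823 and 2455 CPM in sgC. The 3 groups did not overlap, with sgZ3 highest and sgC lowest. Its log2 fold change was 0.45 (SE 0.081, adjusted p = 0.0020) over both guides and 0.59 (SE 0.092, adjusted p = 0.00092) with sgZ3. For sgZ1 it was 0.30 (SE 0.092, adjusted p = 0.031), lost without sgZ1 replicate 2 (adjusted p = 0.073) or 3 (0.085), sgZ3 replicate 2 (0.052) or sgC replicate 1 (0.13) or 3 (0.12).

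ENO2 and PKM differed from sgC with sgZ3. ENO2, the neuronal enolase, had 17.7, 12.6 and 15.1 CPM in sgZ1, 9.95, 10.8 and 10.3 CPM in sgZ3, and 15.8, 16.4 and 14.5 CPM in sgC. The sgZ3 libraries were below all others, with a log2 fold change of -0.59 (SE 0.13, adjusted p = 0.0065), while sgZ1 overlapped sgC at -0.04 (SE 0.13, adjusted p = 0.85). PKM, pyruvate kinase, stood at 1909, 2149 and 2053 CPM in sgZ1, 2585, 2438 and 2312 CPM in sgZ3, and 1967, 2099 and 1878 CPM in sgC. The sgZ3 libraries were above all others, and sgZ1 overlapped sgC. The PKM log2 fold change was 0.30 (SE 0.083, adjusted p = 0.015) with sgZ3, a call lost without sgZ3 replicate 1 (adjusted p = 0.064) or 2 (0.052) or sgC replicate 1 (0.060) or 3 (0.071) and with library totals alone (0.11). The value for sgZ1 was 0.04 (SE 0.083, adjusted p = 0.76).

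Of the lactate genes, LDHA and the transporter SLC16A3 were called over both guides, and both transporters were called between the guides. LDHA, whose subunit favours lactate formation, had 1705, 1952 and 1649.6 CPM in sgZ1, 2079, 1982 and 1937 CPM in sgZ3, and 1522, 1743 and 1443 CPM in sgC. The sgZ3 libraries were above sgC and the sgZ1 libraries overlapped it. The log2 fold change over both guides was 0.26 (SE 0.083, adjusted p = 0.031), lost without sgZ1 replicate 2 (adjusted p = 0.062), sgZ3 replicate 1 (0.061) or 2 (0.059) or sgC replicate 1 (0.14) or 3 (0.16) and with upper-quartile factors (0.055) or library totals alone (0.10). With sgZ1 the LDHA value was 0.17 (SE 0.095, adjusted p = 0.20). With sgZ3 it was 0.35 (SE 0.095, adjusted p = 0.014), lost without sgZ3 replicate 1 (0.054) or sgC replicate 1 (0.066) or 3 (0.072) and with library totals alone (0.079). LDHB, whose subunit favours the reverse reaction, averaged 159 ± 8.14 CPM in sgZ1, 166 ± 4.80 CPM in sgZ3 and 162 ± 11.6 CPM in sgC (SD, n = 3 each), at 0.01 (SE 0.075, adjusted p = 0.96) over both guides. SLC16A3 (ENSG00000141526.18; chromosome 17, 82228397 to 82261129, plus strand), the lactate exporter MCT4, had 318, 328 and 385 CPM in sgZ1, 232, 282 and 258 CPM in sgZ3, and 213, 216 and 188 CPM in sgC. The 3 groups did not overlap, with sgZ1 highest and sgC lowest. The SLC16A3 log2 fold change was 0.53 (SE 0.094, adjusted p = 0.0018) over both guides and 0.74 (SE 0.11, adjusted p = 0.00036) with sgZ1. With sgZ3 it was 0.32 (SE 0.11, adjusted p = 0.032). That call was lost without sgZ3 replicate 2 (0.14) or sgC replicate 1 (0.076), 2 (0.053) or 3 (0.14). It was also lost with upper-quartile factors (0.073) or library totals alone (0.21). SLC16A1, the transporter MCT1, had 787, 750.1 and 736 CPM in sgZ1, 983, 935 and 1161 CPM in sgZ3, and 827, 846 and 901 CPM in sgC. Its sgZ3 libraries were above sgC and its sgZ1 libraries below it. The test of sgZ3 against sgZ1 gave 0.44 (SE 0.092, adjusted p = 0.0042) for SLC16A1, while the value over both guides was 0.04 (SE 0.080, adjusted p = 0.73). Against sgC the value for sgZ3 was 0.26 (adjusted p = 0.045), a call lost without sgZ1 replicate 1 (adjusted p = 0.059), 2 (0.082) or 3 (0.055), sgZ3 replicate 1 (0.072) or 3 (0.13) or sgC replicate 1 (0.15), 2 (0.11) or 3 (0.076), with library totals alone (0.40), upper-quartile factors (0.12), no low-count filter (0.073) or a mean of at least 10 CPM (0.071), and without both libraries high in VIM (0.23).

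Of the 4 flux regulators 2 were lower and 1 higher with each guide, and none was called between sgZ3 and sgZ1, where log2 fold changes ran from -0.034 to 0.035. PDK1 (ENSG00000152256.14; chromosome 2, 172555373 to 172608669, plus strand) encodes the kinase that shuts pyruvate dehydrogenase and so limits the use of pyruvate in mitochondria. It had 37.4, 34.7 and 31.4 CPM in sgZ1, 32.9, 33.1 and 35.1 CPM in sgZ3, and 54.2, 58.4 and 49.1 CPM in sgC. Every library with a ZNF692 guide was below every sgC library. The PDK1 log2 fold change was -0.66 (SE 0.086, adjusted p = 0.00034) over both guides, -0.64 (SE 0.10, adjusted p = 0.00068) with sgZ1 and -0.68 (SE 0.10, adjusted p = 0.00078) with sgZ3. PFKFB2, 1 of the enzymes that set the level of fructose-2,6-bisphosphate, an activator of phosphofructokinase, had 24.5, 24.4 and 23.4 CPM in sgZ1, 25.6, 21.9 and 26.6 CPM in sgZ3, and 34.9, 30.6 and 37.0 CPM in sgC. It too was below sgC without overlap, with a log2 fold change of -0.49 (SE 0.092, adjusted p = 0.0025) over both guides, -0.51 (SE 0.11, adjusted p = 0.0050) with sgZ1 and -0.47 (SE 0.11, adjusted p = 0.0067) with sgZ3. PFKFB3, a hypoxia-inducible member of that family, had 43.7, 41.6 and 46.3 CPM in sgZ1, 44.1, 43.6 and 44.5 CPM in sgZ3, and 35.9, 38.9 and 32.9 CPM in sgC. All its libraries with a ZNF692 guide were above sgC, at 0.29 (SE 0.083, adjusted p = 0.019) over both guides, lost without sgC replicate 1 (adjusted p = 0.083) or 3 (0.12) and with library totals alone (0.083). For sgZ1 the PFKFB3 value was 0.29 (adjusted p = 0.040), lost without sgZ1 replicate 1 (0.077) or 3 (0.10), sgZ3 replicate 1 (0.061) or 2 (0.064) or sgC replicate 1 (0.13) or 3 (0.18) and with library totals alone (0.072), upper-quartile factors (0.056), only the groups compared (0.070) or no low-count filter (0.084). For sgZ3 it was 0.30 (adjusted p = 0.029), lost without sgZ3 replicate 1 (0.083) or 2 (0.080) or sgC replicate 1 (0.092) or 3 (0.14) and with library totals alone (0.25), upper-quartile factors (0.075) or no low-count filter (0.084). PFKFB3 is the 1 higher regulator, so under each of these settings 0 were higher in that comparison. PFKFB4 averaged 24.3 ± 3.70 CPM in sgZ1, 24.5 ± 2.75 CPM in sgZ3 and 19.9 ± 1.5 CPM in sgC (SD, n = 3 each), with a value over both guides of 0.30 (SE 0.12, adjusted p = 0.066). That value passed the threshold without sgZ1 replicate 1 (adjusted p = 0.035) or sgZ3 replicate 3 (0.034) and without both libraries high in VIM (0.030).

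**Figure D2:**
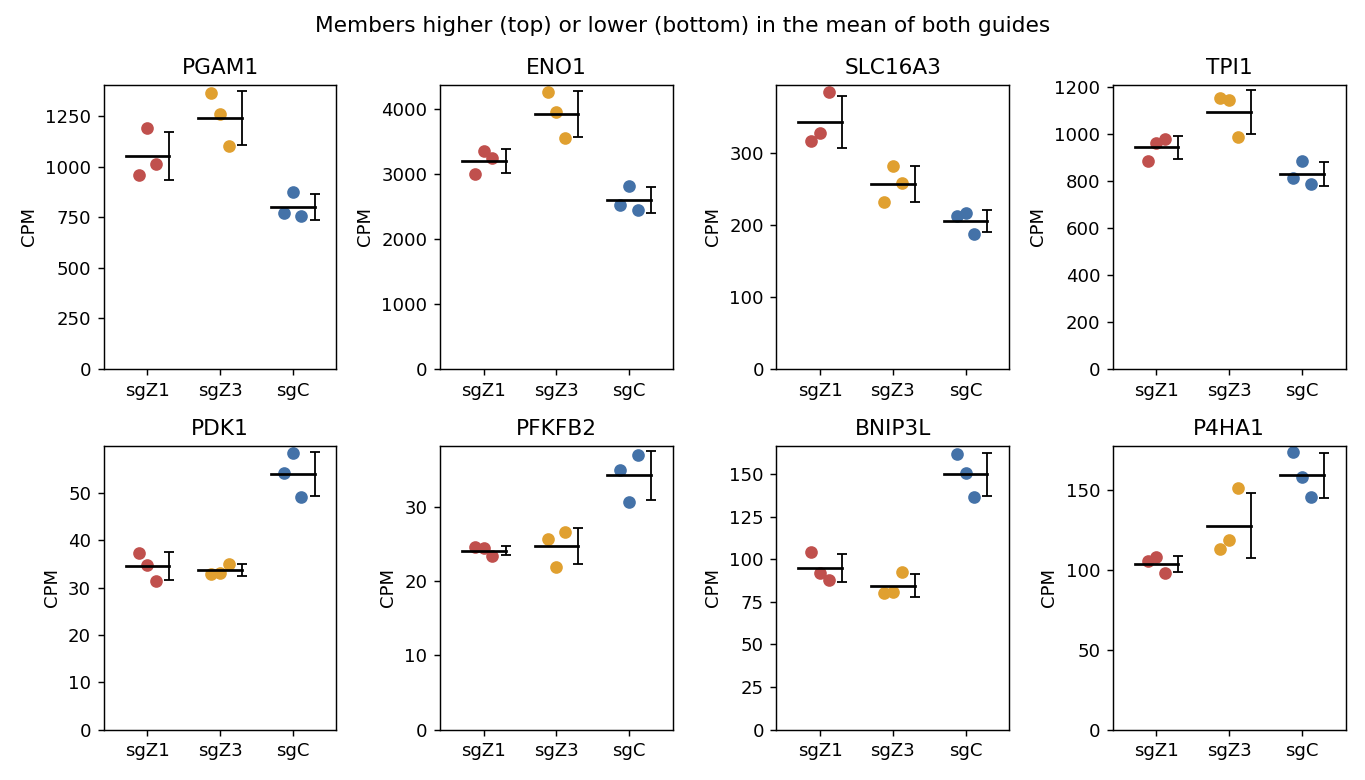
CPM of 8 genes in the 3 groups, on axes that start at 0. Points are libraries, horizontal lines the mean of 3, and error bars the SD. PGAM1, ENO1, SLC16A3 and TPI1 in the top row have group means above sgC with both guides, and PDK1, PFKFB2, BNIP3L and P4HA1 in the bottom row have group means below it. TPI1 in sgZ1 and P4HA1 in sgZ3 overlap sgC.

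The plot of these 8 genes by library, chosen after their values were seen, shows that the lower values of PDK1 and BNIP3L leave a gap to sgC, while those of P4HA1 in sgZ3 do not.

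HIF1A, which encodes HIF-1α itself, had 193, 156 and 158 CPM in sgZ1, 152, 141 and 180.3 CPM in sgZ3, and 212, 201 and 223 CPM in sgC. Both groups with a ZNF692 guide were below sgC without overlap. The log2 fold change over both guides was -0.38 (SE 0.098, adjusted p = 0.013), lost without sgC replicate 1 (adjusted p = 0.060) or 3 (0.071). With sgZ1 the HIF1A value was -0.33 (SE 0.11, adjusted p = 0.052). With sgZ3 it was -0.43 (SE 0.11, adjusted p = 0.014), lost without sgZ3 replicate 1 (0.056) or 2 (0.072) or sgC replicate 1 (0.051) or 3 (0.060). HIF-1α is controlled mainly through its protein, which was not measured here. Of the oxygen sensors, EGLN1 averaged 28.1 ± 1.94 CPM in sgZ1, 35.0 ± 4.28 CPM in sgZ3 and 31.4 ± 4.20 CPM in sgC (SD, n = 3 each), at -0.0030 (SE 0.11, adjusted p = 0.99) over both guides. EGLN3, which is itself a HIF target, had 14.8, 16 and 14.4 CPM in sgZ1, 19.1, 20.6 and 18.2 CPM in sgZ3, and 20.9, 19.5 and 18.2 CPM in sgC. The sgZ1 libraries of EGLN3 were below sgC and sgZ3 overlapped it. The EGLN3 log2 fold change was -0.37 (SE 0.11, adjusted p = 0.023) with sgZ1, lost without sgZ1 replicate 1 (adjusted p = 0.058) or 3 (0.064) or sgC replicate 1 (0.11) or 2 (0.068) and with no low-count filter (0.077). The value for sgZ3 was -0.02 (SE 0.11, adjusted p = 0.91).

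Among targets of HIF, BNIP3L, NDRG1, VEGFA and P4HA1 were lower over both guides and kept that call without each library in turn. BNIP3L (ENSG00000104765.16), also called NIX, a receptor for the removal of mitochondria, had 104, 92.0 and 88.0 CPM in sgZ1, 80.3, 80.8 and 92.4 CPM in sgZ3, and 162, 151 and 137 CPM in sgC. Both ZNF692 groups were below sgC without overlap. The BNIP3L log2 fold change was -0.74 (SE 0.087, adjusted p = 0.00022) over both guides, -0.66 (SE 0.10, adjusted p = 0.00064) with sgZ1 and -0.82 (SE 0.10, adjusted p = 0.00031) with sgZ3. VEGFA, the vascular growth factor, had 102, 96.8 and 88.3 CPM in sgZ1, 86.3, 85.7 and 90.3 CPM in sgZ3, and 121, 123 and 114 CPM in sgC. These were again below sgC without overlap, with a log2 fold change of -0.38 (SE 0.075, adjusted p = 0.0032) over both guides and -0.45 (SE 0.088, adjusted p = 0.0031) with sgZ3. For sgZ1 it was -0.31 (SE 0.088, adjusted p = 0.021), lost without sgZ1 replicate 3 (adjusted p = 0.056) or sgC replicate 1 (0.083) or 2 (0.081) and with no low-count filter (0.058).

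NDRG1 was called with sgZ3 and P4HA1 with sgZ1, and of the pair only NDRG1 was called between the guides (for P4HA1, sgZ3 against sgZ1 gave 0.30 (SE 0.12, adjusted p = 0.074), and DESeq2 an adjusted p of 0.043). NDRG1 (ENSG00000104419.17), a gene induced by hypoxia and differentiation, had 84.6, 70.4 and 81.6 CPM in sgZ1, 44.6, 54.9 and 55.9 CPM in sgZ3, and 109, 102 and 81.3 CPM in sgC. Its sgZ3 libraries were below all others, and sgZ1 overlapped sgC. The NDRG1 log2 fold change was -0.91 (SE 0.13, adjusted p = 0.00064) with sgZ3, -0.30 (SE 0.13, adjusted p = 0.10) with sgZ1 and -0.61 (SE 0.11, adjusted p = 0.0021) over both guides. Without sgC replicate 3 NDRG1 was called also with sgZ1 (-0.42, adjusted p = 0.048). P4HA1 (ENSG00000122884.13; chromosome 10, 73007217 to 73096974, minus strand), a catalytic subunit of collagen prolyl 4-hydroxylase, had 106, 108 and 97.9 CPM in sgZ1, 113, 119 and 151 CPM in sgZ3, and 174, 158 and 146 CPM in sgC. The sgZ1 libraries were below sgC without overlap, and sgZ3 replicate 3 lay within the sgC range. The P4HA1 log2 fold change was -0.62 (SE 0.12, adjusted p = 0.0024) with sgZ1, -0.32 (SE 0.12, adjusted p = 0.052) with sgZ3 and -0.47 (SE 0.10, adjusted p = 0.0049) over both guides. The P4HA1 value for sgZ3 passed the threshold without sgZ3 replicate 3 (-0.45, adjusted p = 0.0032) or sgZ1 replicate 2 (0.032), without both libraries high in VIM (3.0e-05), and with library totals alone (0.011), upper-quartile factors (0.022), a mean of at least 10 CPM (0.028), no low-count filter (0.027) or DESeq2 (0.040). KDM3A, a histone demethylase induced by HIF, had 35.3, 29.8 and 32.3 CPM in sgZ1, 21.2, 23.3 and 30.1 CPM in sgZ3, and 38.8, 38.5 and 37.3 CPM in sgC. All ZNF692 libraries of KDM3A were below sgC. Its log2 fold change was -0.61 (SE 0.13, adjusted p = 0.0039) with sgZ3 and -0.42 (SE 0.11, adjusted p = 0.011) over both guides, the second lost without sgC replicate 1 (adjusted p = 0.060). With sgZ1 the KDM3A value was -0.23 (SE 0.13, adjusted p = 0.19).

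Other hypoxia genes went up or differed by guide. CA12, a membrane carbonic anhydrase that regulates pH, had 6.99, 5.81 and 7.34 CPM in sgZ1, 7.65, 8.08 and 9.74 CPM in sgZ3, and 4.04, 4.82 and 5.42 CPM in sgC. Both groups with a ZNF692 guide were above sgC without overlap. The CA12 log2 fold change was 0.66 (SE 0.14, adjusted p = 0.0053) over both guides and 0.84 (SE 0.16, adjusted p = 0.0029) with sgZ3. With sgZ1 it was 0.49 (SE 0.16, adjusted p = 0.043). That call was lost without sgZ1 replicate 1 (0.10) or 3 (0.13), sgZ3 replicate 1 (0.051) or 2 (0.058) or sgC replicate 1 (0.18), 2 (0.10) or 3 (0.051). It was also lost with library totals alone (0.074), upper-quartile factors (0.055) or no low-count filter (0.053). CA9, its better-known relative and a common hypoxia marker, was low and averaged 0.906 ± 0.316 CPM in sgZ1, 0.618 ± 0.532 CPM in sgZ3 and 1.02 ± 0.404 CPM in sgC (SD, n = 3 each), at -0.38 (SE 0.43, adjusted p = 0.51) over both guides. Without sgZ3 replicate 3 CA9 was called lower with sgZ3 (-1.58, adjusted p = 0.029). BNIP3 (ENSG00000176171.11; chromosome 10, 131966455 to 131982013, minus strand), the other mitophagy receptor of the pair, had 26.3, 28.5 and 22.9 CPM in sgZ1, 2.03, 1.14 and 2.28 CPM in sgZ3, and 4.38, 4.34 and 3.88 CPM in sgC. The sgZ1 libraries were above every sgC library and the sgZ3 libraries below every one. The BNIP3 log2 fold change was 2.63 (SE 0.18, adjusted p = 8.8e-07) with sgZ1 and -1.21 (SE 0.21, adjusted p = 0.0018) with sgZ3. The value over both guides, 0.71 (SE 0.17, adjusted p = 0.0094), is the mean of changes in opposite directions and lost its call without sgC replicate 3 (adjusted p = 0.054). The BNIP3 window printed above holds 2 ACGTG matches, both within 1 E-box, and 4 GCGTG matches. GENCODE 29 names 39 BNIP3 pseudogenes, and the 37 found in the table held counts equal to 5.85% of those of BNIP3, so reads could be split between them. This share pools all libraries, and the 122 pseudogene counts are not split by group here. BNIP3 held 565, 696 and 465 counts in sgZ1, but 30, 21 and 45 in sgZ3 and 90, 81 and 91 in sgC. The share could thus be larger in sgZ3 and sgC.

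ADM, P4HA2 and ANGPTL4 were called with sgZ3. ADM, adrenomedullin, a vasodilator peptide, had 21.6, 26.0 and 19.3 CPM in sgZ1, 30.5, 31.4 and 28.4 CPM in sgZ3, and 24.6, 22.7 and 20.6 CPM in sgC. The sgZ3 libraries were above all others, at 0.41 (SE 0.12, adjusted p = 0.023), a call lost without sgZ3 replicate 1 (adjusted p = 0.068) or 2 (0.085) or sgC replicate 2 (0.062) or 3 (0.11) and with library totals alone (0.11). P4HA2, another catalytic subunit of collagen prolyl 4-hydroxylase, had 137, 155 and 159 CPM in sgZ1, 223, 232 and 221 CPM in sgZ3, and 177, 181 and 172 CPM in sgC. Its sgZ3 libraries were above sgC and its sgZ1 libraries below sgC, with log2 fold changes of 0.35 (SE 0.085, adjusted p = 0.0081) with sgZ3, lost with library totals alone (adjusted p = 0.064), and -0.23 (SE 0.085, adjusted p = 0.059) with sgZ1. The value for sgZ1 passed the threshold without sgZ1 replicate 2 (adjusted p = 0.040) or 3 (0.048), sgZ3 replicate 3 (0.045) or both libraries high in VIM (0.010), and with library totals alone (0.021), upper-quartile factors (0.034) or DESeq2 (0.034). ANGPTL4, an inhibitor of lipoprotein lipase, had 8.11, 5.08 and 6.26 CPM in sgZ1, 2.98, 3.52 and 2.89 CPM in sgZ3, and 6.48, 5.41 and 4.31 CPM in sgC. The sgZ3 libraries were below all others, at -0.78 (SE 0.21, adjusted p = 0.015), lost without sgZ3 replicate 1 (adjusted p = 0.051) or sgC replicate 1 (0.074). ANKRD37, a small HIF target gene, averaged 4.60 ± 1.08 CPM in sgZ1, 6.01 ± 2.16 CPM in sgZ3 and 5.19 ± 0.900 CPM in sgC (SD, n = 3 each) and was not called in any comparison, although without sgZ3 replicate 3 it was higher in sgZ3 than in sgZ1 (0.60, adjusted p = 0.049).

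**Figure D3:**
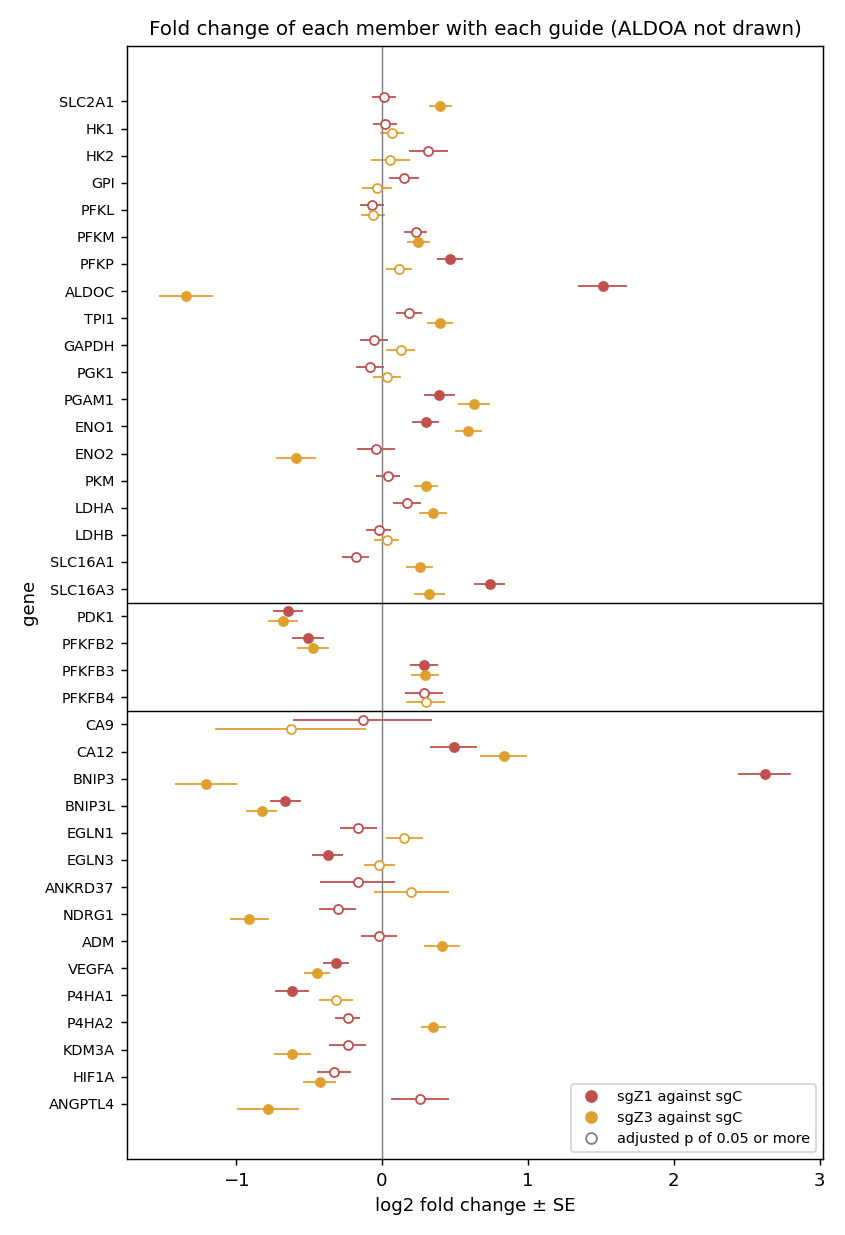
Log2 fold change against sgC (horizontal axis) with its standard error for 38 of the 39 genes, ALDOA left out, with sgZ1 in red and sgZ3 in yellow. Filled points passed an adjusted p of 0.05 and open points did not, and horizontal lines separate glycolysis, flux regulators and hypoxia genes. ALDOC and BNIP3 lie on opposite sides of 0 with the 2 guides, at 1.52 and 2.63 for sgZ1 and -1.34 and -1.21 for sgZ3, and PDK1 lies at -0.64 and -0.68.

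The plot of fold changes by guide rests on sgC libraries shared by both guides, so the 2 points of a gene are not independent. The difference between guides was therefore tested directly, as sgZ3 against sgZ1. In it 4 glycolytic genes were higher and 5 lower, and 3 hypoxia genes were higher and 4 lower, where 12.8% of all genes were called higher and 15.8% lower (28.6% in either direction). Without ALDOA the 5 lower glycolytic genes were 4 of 19. The 4 higher glycolytic genes were 2 without sgZ1 replicate 1 or 3, sgZ3 replicate 1 or 2, or sgC replicate 1, and 7 without sgZ3 replicate 3, and the 5 lower ones were 3 without sgZ3 replicate 1. The 3 higher hypoxia genes were 1 without sgZ1 replicate 1 or 3 or sgZ3 replicate 1 or 2, and 5 without sgZ3 replicate 3. Without both libraries high in VIM the counts were 7 higher and 7 lower among glycolytic genes, and 5 higher and 7 lower among hypoxia genes. In that fit 53.2% of all genes were called in either direction, and without sgZ3 replicate 3 it was 41.0%. The share was 16.6% to 23.0% without sgZ1 replicate 1 or 3, sgZ3 replicate 1 or 2, or sgC replicate 1.

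Of the 15 genes other than ALDOA called between the guides, 7 kept the call without each library in turn. How many of the 4209 calls over all genes between the guides did so was not counted. BNIP3 had a log2 fold change of -3.83 (SE 0.20, adjusted p = 8.8e-08) with sgZ3 against sgZ1, and ALDOC one of -2.86 (SE 0.18, adjusted p = 4.6e-07). ANGPTL4 was lower in sgZ3, at -1.04 (SE 0.21, adjusted p = 0.0033), as was NDRG1, at -0.60 (SE 0.13, adjusted p = 0.0049). P4HA2 was higher in sgZ3, at 0.59 (SE 0.085, adjusted p = 0.00037), as were SLC16A1, at 0.44 (SE 0.092, adjusted p = 0.0042), and SLC2A1, at 0.38 (SE 0.080, adjusted p = 0.0039).

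**Figure D4:**
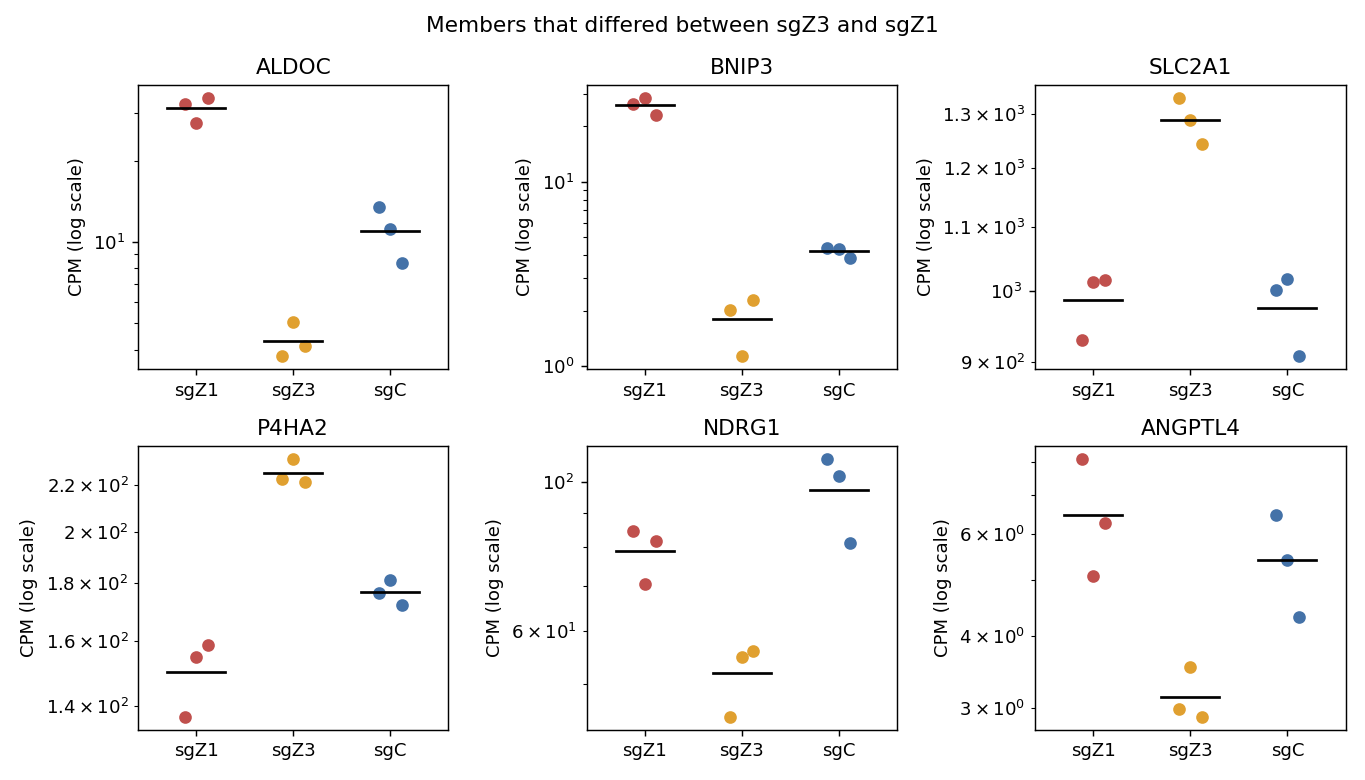
CPM on a log axis of 6 genes that differed between sgZ3 and sgZ1, with points for libraries and lines for the mean of 3. ALDOC, BNIP3, NDRG1 and ANGPTL4 are lower in every sgZ3 library than in every sgZ1 library, and SLC2A1 and P4HA2 are higher. The sgC libraries of ALDOC, BNIP3 and P4HA2 lie between the 2 groups without overlap.

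In the plot of genes that differed between guides, the 6 genes were picked with their values known. ANGPTL4 lies between 2.89 and 8.11 CPM over the 9 libraries, so counting error weighs more in it than in SLC2A1, which lies between 908 and 1332 CPM.

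Glycolytic genes were also set against HIF targets within each library, as the mean log2 CPM of the 20 glycolytic genes minus that of the 14 hypoxia genes other than HIF1A. This difference was 3.79 ± 0.117 in sgZ1, 3.79 ± 0.125 in sgZ3 and 3.40 ± 0.0992 in sgC (log2 units, SD, n = 3 each). It was 3.66 to 3.92 in the 6 libraries with a ZNF692 guide, above 3.33 to 3.51 in the 3 sgC libraries. Without ALDOA, ALDOC and BNIP3 it was 4.38 ± 0.113 in sgZ1, 4.45 ± 0.115 in sgZ3 and 4.05 ± 0.104 in sgC, again without overlap (lowest 4.29 in sgZ1 and highest 4.16 in sgC). The glycolytic mean of those 18 genes was 8.94 ± 0.0399 in sgZ1, 8.98 ± 0.0258 in sgZ3 and 8.80 ± 0.0640 in sgC. With TMM scaling both ZNF692 groups were above sgC without overlap while overlapping each other. TMM factors were 0.997 to 1.03 in sgZ1, 0.922 to 0.957 in sgZ3 and 1.03 to 1.06 in sgC. Relative to library totals, TMM thus raises sgZ3 and lowers sgC, and whether sgC stays apart without it was not tested. A factor moves both means of a library nearly alike and so hardly touches their difference. The mean of the 13 HIF targets was 4.55 ± 0.0731 in sgZ1, 4.53 ± 0.0970 in sgZ3 and 4.75 ± 0.146 in sgC. There sgC replicate 3, at 4.58, lay within the range of the libraries with a ZNF692 guide. With ALDOA, ALDOC and BNIP3 included, the mean of the 14 HIF targets was 4.56 ± 0.0774 in sgZ1, 4.27 ± 0.0988 in sgZ3 and 4.56 ± 0.143 in sgC, and the mean of the 20 glycolytic genes was 8.35 ± 0.0401 in sgZ1, 8.06 ± 0.0308 in sgZ3 and 7.96 ± 0.0436 in sgC. The HIF target mean of sgZ1 was then not below that of sgC. The genes were chosen with earlier results of these data known, so no p is given for these means.

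**Figure D5:**
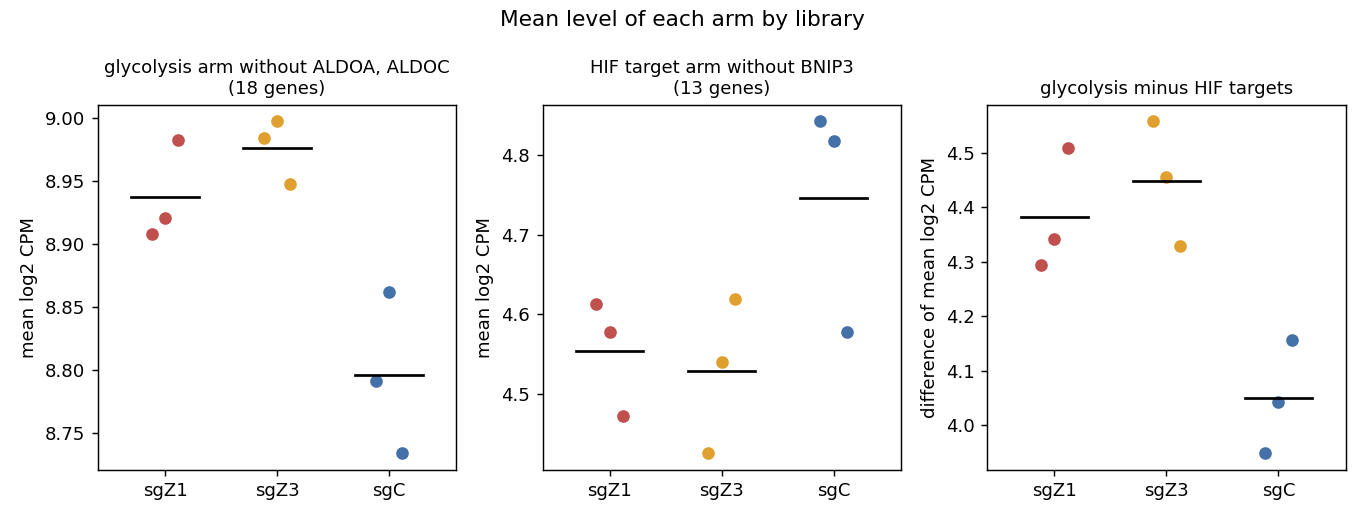
Mean log2 CPM by library of 18 glycolytic genes (left), of 13 HIF targets (middle), and their difference (right), with lines for group means. The vertical axes do not start at 0. The difference is 4.29 to 4.56 in the 6 libraries with a ZNF692 guide and 3.95 to 4.16 in sgC, while sgC replicate 3 overlaps the others in the HIF target panel.

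The plot of mean levels by library leaves out ALDOA, ALDOC and BNIP3, and in it group means with a ZNF692 guide are higher for glycolysis and lower for HIF targets, and sgC replicate 3 is the lowest sgC library in both.

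Balance between related genes was read per exon length (RPKM, counts scaled by exon length and library size), since longer genes collect more counts. ENO1 made up 99.4% of enolase RPKM in sgZ1, 99.7% in sgZ3 and 99.3% in sgC, so the neuronal form was a trace in every group. Among phosphofructokinases PFKP held 45.6% ± 1.67 in sgZ1, 39.6% ± 1.31 in sgZ3 and 38.8% ± 0.627 in sgC (SD, n = 3 each). LDHA held 84.2% of lactate dehydrogenase RPKM in sgZ1, 85.3% in sgZ3 and 82.3% in sgC, without overlap between sgC and the other groups. The exporter SLC16A3 held 21.1% ± 2.25 of the RPKM of the 2 lactate transporters in sgZ1, 13% ± 1.87 in sgZ3 and 12.4% ± 1.27 in sgC. Of the mitophagy pair, BNIP3 held 18.1% ± 1.65 in sgZ1, 1.70% ± 0.494 in sgZ3 and 2.22% ± 0.0683 in sgC, with BNIP3L the rest. P4HA1 held 65.5% ± 2.53 of the RPKM of P4HA1 and P4HA2 in sgZ1, 60.7% ± 3.97 in sgZ3 and 71.2% ± 1.64 in sgC. PFKFB2 held 17.5% ± 0.980 of the RPKM of the 3 PFKFB genes in sgZ1, 17.8% ± 1.95 in sgZ3 and 26.9% ± 3.37 in sgC. No test was made of these shares.

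Further genes of the same pathways were read from wider lists that leave the 39 out. Of 31 other genes of glucose and pyruvate metabolism 23 were tested, of which 7 were higher and 2 lower over both guides, with a median log2 fold change of 0.12, where 18.6% of all genes tested were called higher and 14.6% lower. The 7 were 2 without sgC replicate 1 and 1 without sgC replicate 3, where 14.5% and 15.9% of all genes were called in either direction, against 33.2%. PDP1, a phosphatase that opens pyruvate dehydrogenase, had 451, 403 and 393 CPM in sgZ1, 140.2, 136 and 131 CPM in sgZ3, and 155, 156 and 156 CPM in sgC. Its sgZ1 libraries were above all others and its sgZ3 libraries below all others, with a log2 fold change for sgZ1 of 1.41 (SE 0.084, adjusted p = 2.6e-07), against -0.20 (SE 0.083, adjusted p = 0.070) with sgZ3. The PDP1 value for sgZ3 passed the threshold without sgZ1 replicate 2 (adjusted p = 0.029) or both libraries high in VIM (0.024), and with library totals alone (-0.36, adjusted p = 0.0063), upper-quartile factors (0.023), only the groups compared (0.038) or a mean of at least 10 CPM (0.025). PDK4, a relative of PDK1 with the same action on pyruvate dehydrogenase, averaged 5.54 ± 0.427 CPM in sgZ1, 4.05 ± 0.825 CPM in sgZ3 and 8.61 ± 0.463 CPM in sgC (SD, n = 3 each), at -0.86 (SE 0.13, adjusted p = 0.00084) over both guides. GPD2, the mitochondrial glycerol phosphate dehydrogenase, averaged 104 ± 8.94 CPM in sgZ1, 93.5 ± 4.12 CPM in sgZ3 and 78.8 ± 2.41 CPM in sgC (SD, n = 3 each), at 0.32 (SE 0.080, adjusted p = 0.010) over both guides, lost without sgC replicate 1 (adjusted p = 0.068) or 3 (0.052). SLC16A7, the monocarboxylate transporter MCT2, averaged 3.63 ± 0.215 CPM in sgZ1, 0.268 ± 0.207 CPM in sgZ3 and 0.367 ± 0.147 CPM in sgC (SD, n = 3 each). It passed the filter on low counts only through sgZ1, where it is high, so no test of it is given, although it is 1 of the 7 counted as higher.

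Of 43 other genes of the hypoxia response 41 were tested, of which 6 were higher and 8 lower over both guides, with a median log2 fold change of -0.082, set against the same shares of 18.6% and 14.6% over all genes. The 8 were 5 without sgZ3 replicate 1 or 2, 1 without sgC replicate 1 and 3 without sgC replicate 2 or 3, and 13 without both libraries high in VIM. The 6 were 2 without sgC replicate 1 and 3 without sgC replicate 3. Of all genes 24.9% and 24.0% were called without sgZ3 replicate 1 and 2. The share was 14.5%, 22.1% and 15.9% without sgC replicate 1, 2 and 3, and 49.6% without both libraries high in VIM. CCNG2, a cyclin that restrains growth, had 65.3, 60.1 and 54.6 CPM in sgZ1, 42.3, 45.2 and 42.1 CPM in sgZ3, and 100.2, 91.9 and 89.6 CPM in sgC. All libraries with a ZNF692 guide were below sgC, at -0.88 (SE 0.081, adjusted p = 6.2e-05) over both guides. JMJD6, an oxygen-dependent hydroxylase, had 19.1, 27.1 and 21.7 CPM in sgZ1, 35.5, 31.9 and 32.2 CPM in sgZ3, and 11.8, 14.0 and 11.2 CPM in sgC. All were above sgC, at 1.16 (SE 0.13, adjusted p = 0.00017). STC2, a secreted glycoprotein, averaged 28.3 ± 4.23 CPM in sgZ1, 2.14 ± 1.54 CPM in sgZ3 and 2.46 ± 0.0270 CPM in sgC (SD, n = 3 each), with a log2 fold change of 3.52 (SE 0.34, adjusted p = 2.0e-05) with sgZ1 against -0.18 (SE 0.38, adjusted p = 0.75) with sgZ3. The STC2 value for sgZ3 was -0.98 (adjusted p = 0.011) without sgZ3 replicate 3 and -1.03 (0.0011) without both libraries high in VIM. TFRC, the transferrin receptor, averaged 1358 ± 152 CPM in sgZ1, 1809 ± 159 CPM in sgZ3 and 1188 ± 87.5 CPM in sgC (SD, n = 3 each), at 0.40 (SE 0.090, adjusted p = 0.0065) over both guides, lost without sgC replicate 1 (adjusted p = 0.056).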

How the data were processed

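The authors deposited whole-number counts per gene for 9 poly(A) libraries of DLD1 cells. Per the submitters' processing notes, STAR 2.5.2b, SAMtools 1.9, HTSeq and DESeq2 were used with GRCh38 (hg38) as the build, and the notes assign them no roles. Neither the annotation release nor the strand setting is given in the sources used here, so overlapping and antisense genes are uncertain. Columns were matched to libraries by title. The description of sgC replicate 3 names the ribosomal RNA table, while its title and molecule place it among the poly(A) libraries. The 9 ribosomal RNA libraries were not used here.

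Counts were filtered (filterByExpr), TMM-scaled and fitted over all 9 libraries by group alone with edgeR 4.0.16 (limma 3.58.1, R 4.3.3), using the robust quasi-likelihood test. P-values were adjusted by Benjamini-Hochberg over 14732 genes, with a threshold of 0.05. CPM values use TMM-scaled sizes, and log2 CPM a prior count of 2. RPKM uses GENCODE 29 exon lengths. Of the 47021 rows 18022 had 0 counts throughout. The common biological coefficient of variation was 12.7%. Replicates differed by more than counting noise (chi-square per degree of freedom 4.19 to 32.7). On simulated data for both guides against sgC (14732 genes simulated, 14502 fitted), 62.7% of 1.5-fold, 89.6% of 2-fold and all 4-fold changes were recovered, with 10 false among 178 calls. The simulation changed 67, 67 and 66 genes at these folds, far fewer than the 4885 called in the data over both guides. Its recovery rates therefore do not carry over to these data.

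The genes and lists were chosen with earlier results of these data known. Values in every library are given for each of the 39 genes called over both guides or between sgZ3 and sgZ1, and from each wider list up to 4 genes with the smallest adjusted p over both guides are named. Alternatives were DESeq2 1.42.0, other scalings, filters and thresholds, a replicate block, fits of only the groups compared, and leaving out each library. Both VIM-high libraries were also left out together, a choice made from those earlier results. A changed sign of a value called in neither fit was counted as unchanged, which concerned 124 of 2904 results.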

Additional observations from a re-analysis of the deposited data

Results flagged for a closer look

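The direct test of sgZ3 against sgZ1 (edgeR, quasi-likelihood, 3 libraries each) called 16 of the 39 genes, so these differ between 2 guides labelled as aimed at the same gene, where 28.6% of all genes were called. The calls that held without each library in turn were BNIP3 at a log2 fold change of -3.83 (SE 0.20, adjusted p = 8.8e-08), ALDOC at -2.86 (SE 0.18, adjusted p = 4.6e-07), ANGPTL4 at -1.04 (SE 0.21, adjusted p = 0.0033), NDRG1 at -0.60 (SE 0.13, adjusted p = 0.0049), P4HA2 at 0.59 (SE 0.085, adjusted p = 0.00037), SLC16A1 at 0.44 (SE 0.092, adjusted p = 0.0042), and SLC2A1 at 0.38 (SE 0.080, adjusted p = 0.0039). ALDOA, also among the 16, had a fitted value of -4.48, which is a description only, since it passed the filter on low counts through sgZ1 alone and had counts of 0 to 3 in sgZ3.

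The other 8 calls each depended on single libraries or on the scaling. PFKP was at -0.34 (SE 0.089, adjusted p = 0.013), lost without sgZ3 replicate 1 (adjusted p = 0.061) and with only the groups compared (0.053). ENO1 was at 0.29 (SE 0.092, adjusted p = 0.032), lost without sgZ1 replicate 1 (adjusted p = 0.13) or 3 (0.074), sgZ3 replicate 1 (0.13) or 2 (0.098) or sgC replicate 1 (0.054) and with library totals alone (0.097), a mean of at least 10 CPM (0.061) or only the groups compared (0.057). ENO2 was at -0.55 (SE 0.13, adjusted p = 0.010), lost without sgZ1 replicate 1 (adjusted p = 0.053). PKM was at 0.26 (SE 0.083, adjusted p = 0.032), lost without sgZ1 replicate 1 (adjusted p = 0.13) or 3 (0.070), sgZ3 replicate 1 (0.13) or 2 (0.093) or sgC replicate 1 (0.057) and with library totals alone (0.12), upper-quartile factors (0.053), only the groups compared (0.067), a mean of at least 10 CPM (0.062) or no low-count filter (0.088). SLC16A3 was at -0.41 (SE 0.11, adjusted p = 0.012), lost without sgZ1 replicate 3 (adjusted p = 0.054) or sgZ3 replicate 1 (0.064). EGLN3 was at 0.35 (SE 0.11, adjusted p = 0.027), lost without sgZ1 replicate 1 (adjusted p = 0.086) or 3 (0.075) or sgZ3 replicate 1 (0.072) or 2 (0.11) and with library totals alone (0.10), no low-count filter (0.10) or only the groups compared (0.069). ADM was at 0.43 (SE 0.12, adjusted p = 0.021), lost without sgZ1 replicate 1 (adjusted p = 0.082) or 3 (0.082) or sgZ3 replicate 1 (0.065) or 2 (0.081) and with library totals alone (0.062). KDM3A was at -0.38 (SE 0.13, adjusted p = 0.042), lost without sgZ1 replicate 1 (adjusted p = 0.16) or 3 (0.098), sgZ3 replicate 1 (0.18) or 2 (0.16) or sgC replicate 1 (0.071), 2 (0.067) or 3 (0.064) and with only the groups compared (0.10).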

How the results depend on the processing

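No value past the threshold changed sign under any alternative. The share of all genes called moved with these settings too. It is not given at 0.01, so counts there cannot be set against it. Counts that moved by more than 1.5 times were these. At a false discovery rate of 0.01, higher glycolytic genes numbered 3 over both guides, 4 with sgZ3 and 2 between guides, lower ones 2 between guides, higher hypoxia genes 1 with sgZ1 and 1 between guides, lower ones 2 with sgZ1, and the wider lists gave 1 higher and 1 lower (glucose) and 3 higher and 2 lower (hypoxia). With library totals alone, which shift the median of all genes to -0.17 for sgZ3 and -0.12 for sgZ3 against sgZ1, glycolytic genes were 5 higher and 1 lower over both guides, 4 higher with sgZ3 and 2 between guides, hypoxia genes were 1 higher with sgZ1, with sgZ3 and between guides, and the wider lists gave 3 higher and 4 lower (glucose) and 3 higher (hypoxia). Library totals alone called 26.5% of all genes with sgZ1 and 28.9% between guides. At a mean of at least 10 CPM, 1 glycolytic gene was lower over both guides and 2 higher between guides. There 1 hypoxia gene was higher over both guides and with sgZ1. Of the 9252 genes then tested, 38.99% were called over both guides, 27.3% with sgZ1 and 28.9% between guides. Without the low-count filter, 1 hypoxia gene was higher with sgZ1, and the wider lists gave 1 lower (glucose) and 10 higher (hypoxia). Of the 28999 genes then tested, 18.7% were called over both guides and 15.1% with sgZ1. With only the groups compared, 2 glycolytic genes were higher between guides, where 21.2% of the 14335 genes tested were called. With upper-quartile factors, 1 glycolytic gene was lower over both guides and 1 hypoxia gene higher with sgZ1. These factors called 33.7% of all genes over both guides and 26.3% with sgZ1. Without both VIM-high libraries, 1 glycolytic gene was lower over both guides, and between guides 7 glycolytic genes were higher and hypoxia genes were 5 higher and 7 lower, while the wider lists gave 5 (glucose) and 13 (hypoxia) lower. Of all genes 49.6% were then called over both guides and 53.2% between guides, against 33.2% and 28.6% in the main fit.

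Deviations of same-numbered libraries from their group means correlated at -0.12 to 0.25 (9 pairs, median 0.040). For libraries of different number and group the values were -0.26 to 0.20 (18 pairs, median -0.012). These ranges overlap, and the numbers were not taken as a pairing, which does not settle whether they are one. With the replicate block, 1 glycolytic gene was lower over both guides, 0 of the 20 calls over both guides were lost and 2 were gained. Of all genes 37.3% were then called over both guides, 28.5% with sgZ1, 40.6% with sgZ3 and 34.0% between guides. The main fit called 33.2%, 25.8%, 36.3% and 28.6% in that order.

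Leaving out 1 library at a time gave these ranges. Of all genes 14.5% to 42.2% were called over both guides and 14.0% to 32.3% with sgZ1. With sgZ3 the share was 20.2% to 45.2%, and between guides it was 16.6% to 41.0%. Higher glycolytic genes were 3 to 10 over both guides, 4 to 8 with sgZ1, 4 to 8 with sgZ3 and 2 to 7 between guides, and lower ones 0 to 1 over both guides (1 without sgZ1 replicate 1 or 2 or sgZ3 replicate 3) and 3 to 7 between guides. Higher hypoxia genes were 1 to 2 over both guides, 1 to 2 with sgZ1, 2 to 3 with sgZ3 and 1 to 5 between guides, and lower ones 4 to 6, 2 to 6, 5 to 9 and 3 to 5 in that order. The wider lists gave 1 to 8 higher and 1 to 3 lower (glucose; 1 lower without any 1 sgC library) and 2 to 8 higher and 1 to 11 lower (hypoxia). ZNF692 was at 0.58 to 0.72 for sgZ1 and 0.12 to 0.30 for sgZ3. With 3 libraries a group small differences can be missed. The simulated check, which recovered 62.7% of 1.5-fold changes over both guides, does not say how many, since it changed far fewer genes than were called here. BNIP3, ANGPTL4, CA9 and ALDOA have few counts and limited precision.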

Other observations

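LOXL2, a lysyl oxidase-like enzyme that crosslinks collagen, was singled out after its values were seen. It had 8.99, 24.5 and 11.8 CPM in sgZ1, 0.135, 0.108 and 21.1 CPM in sgZ3, and 0.195, 0.161 and 0.0426 CPM in sgC. All sgZ1 libraries were above all sgC libraries, while in sgZ3 only replicate 3, which was also high in VIM and SPARC, was above them. It is near 0 outside the libraries where it is high, so no fold or test is given.

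Among prolyl hydroxylases EGLN1 and EGLN3, EGLN1 held 65.3% ± 1.49 of their RPKM in sgZ1, 64.7% ± 1.52 in sgZ3 and 61.9% ± 1.84 in sgC (SD, n = 3 each). SLC2A1 held 98.3% ± 0.172 of the RPKM of SLC2A1 and SLC2A3 in sgZ1, 97.8% ± 0.0989 in sgZ3 and 97.5% ± 0.176 in sgC (SD, n = 3 each). Neither share was tested.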
